A study of Mus musculus with 5 samples.

Results

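In the mouse, many but not all nuclear genes for subunits and assembly factors of respiratory complex I have symbols that begin with Nduf. All protein-coding RefSeq genes of mm10 (GRCm38.p6, chromosomes 1 to 19 and X) with such a symbol were taken, which gave 49 genes of 21631. They were placed beside the binding sites of NKX2-1, a homeodomain transcription factor, in chromatin of wild-type whole lung taken on postnatal day 10. ChIP-seq, the sequencing of DNA that an antibody pulls down with a protein, was done with 4 antibodies against NKX2-1, named Abcam133737, Millipore07-601, Abcam76013 and Abcam133638. Each antibody has 1 library, and all of them are set against 1 shared input library, so the 4 libraries are not replicates and no difference between antibodies or genes carries a p-value. The mice differ in no genotype or treatment, the chromatin was pooled, and a whole lung mixes epithelium with many other cell types, so bound cells of one type and of another cannot be told apart.

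Complex I, or NADH dehydrogenase, takes electrons from NADH, passes them through a flavin and a chain of iron-sulfur clusters to ubiquinone, and pumps protons across the inner mitochondrial membrane. Its matrix arm carries the redox chemistry and its membrane arm the pumps, around a set of conserved core subunits, with many accessory subunits and dedicated assembly factors. In lung, NKX2-1 is known as a regulator of epithelial identity and of surfactant genes. The genes of complex I are expressed in nearly every cell type.

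Overlapping peaks of the 4 lists were merged into 68913 regions, of which 31605 held a peak of every antibody. A gene was counted when all 4 antibodies had a summit, the highest point of a peak, in the same region and within 2 kb of either gene end, which is called a four-antibody region here. Of the Nduf genes, 34 of 49 (69.4%) had one, against 38.4% of all protein-coding genes. Without genes named as predicted, Riken or chemoreceptor genes the background was 42.8%. Within 10 kb of an end the count was 42 (85.7%), against 54.3%. A peak of any antibody lay within 2 kb of 44 members (89.8%, background 57.2%) and within 10 kb of 47 members (95.9%, background 70.1%). The sites were frequent, but over all peaks their folds were not above those of other genes. The best region of a member had a mean fold enrichment over the 4 antibodies of 6.73 (median, range 4.50 to 28.6), against 7.24 for all genes with a region within 2 kb. When only stronger peaks were kept, fewer members were left and their median was above that of all genes. With peaks of at least 5-fold the medians were 9.50 for 18 members and 9.32 for all genes. With the 10000 strongest peaks of each list they were 14.8 for 6 members and 13.6 for all genes. Both settings select on the fold itself, and the differences were not tested. The fold is the authors' ratio of tags at the summit to a background, with 1 added to each. At many regions that background was a genome-wide value and not a local value from the input. This held at 58.8%, 58.8%, 52.9% and 58.8% of the 34 best member regions, in the order of antibodies given above. Over all peaks of each list the shares were 63.3%, 60%, 62.9% and 62.4%. Of the 34 members, 7 (20.6%) had a mean fold of at least 10, against 24.9% of all genes with a region. In 6 of them (17.6%) the region was among the 10000 strongest peaks of every antibody, against 21%. For scale, the genes of NKX2-1 itself (Nkx2-1) and of the surfactant and alveolar markers Sftpc, Sftpb and Ager had best regions with mean folds of 18.9 to 27.1.

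Several sites belonged to neighbours by distance. In 25 members (51.0%, background 33.4%) a four-antibody region within 2 kb had its summit nearer to the member than to any other gene. In 9 members every such region was nearer to another gene. Among genes with a region, the best one was nearest to the gene less often in members, in 73.5% against 83.8% of all genes. Within 10 kb, 30 members had a region nearest to them (61.2%, background 43.5%) and 12 had only regions nearer to another gene. Counted over genes with a region there, these were 30 of 42 members, beside 9406 of 11751 genes. No region was shared by 2 members: the 34 members held 38 regions within 2 kb, and 3 of them held more than 1 (8.82%, against 23.9% of all genes with a region).

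The core subunits of the matrix arm described here had four-antibody regions close to a gene end, with modest folds. In all of them but Ndufs1, whose strand was not at hand, that end was the start. Ndufv1, whose protein binds NADH and the flavin, had folds of 6.33, 8.14, 4.66 and 8.46 for Abcam133737, Millipore07-601, Abcam76013 and Abcam133638, the order used for all folds and pileups below. Its summit lay 94 bp upstream of the start. Ndufv2, an iron-sulfur subunit beside it, had 3.91, 5.08, 6.5 and 7.11 at 176 bp upstream. The core subunits described here were low and even in fold, with mean folds between 5.39 (Ndufs3) and 6.90 (Ndufv1). Ndufs1, the largest iron-sulfur subunit, had 4.73, 6.35, 6.70 and 6.25, and its summit was 145 bp from Ndufs1 and 154 bp from Eef1b2. Ndufs3, a core subunit of the matrix arm, had 5.76, 5.92, 4.26 and 5.60 at 2 bp from its start and 17 bp from Kbtbd4. Ndufs7 and Ndufs8, which carry the last clusters before ubiquinone, had mean folds of 6.59 and 6.08.

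The accessory subunits of the matrix arm had a median mean fold of 11.5, with a four-antibody region within 2 kb of 6 of 9. Ndufs4, whose loss in people causes a form of Leigh syndrome, had the highest values of any member. Its region, chr13:114289430-114289840 in mm10, had summit pileups of 108, 172, 128 and 135 tags, with exact 95% Poisson intervals of 88.6 to 130, 147 to 200, 107 to 152 and 113 to 160 that cover counting error only. The folds were 22.4, 36.6, 26.2 and 29.3, above 98.8% to 99.5% of the peaks in each list, and the 4 summits fell within 17 bp. This site was not at the promoter. It lay inside the gene, 1828 bp before the end of the transcription unit, 98470 bp from the start and 132161 bp from the next gene, Arl15. At the Ndufs4 start, 56 bp away, 3 antibodies had a weak peak (folds 6.13, 4.26 and 4.96) and Abcam133737 had none.

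Ndufa5, a matrix arm subunit, had 64, 85, 64 and 95 tags at its summit and folds of 12.1, 17.1, 12.1 and 18.5. The summit lay 44 bp inside the gene from its start, and 498 bp from Asb15. Ndufa12, a subunit related to an assembly factor that it replaces in the finished enzyme, had 57, 62, 65 and 83 tags and folds of 11.2, 12.5, 12.5 and 16.9. Both therefore had promoter sites with folds over 10 in all 4 libraries. Ndufa9, which lies near the ubiquinone site, had folds of 8.19, 12.4, 7.55 and 11.1 at 64 bp upstream. Ndufa6 and Ndufa2 were weaker, at mean folds of 5.99 and 6.32. Ndufa2 also had a stronger region within 10 kb, with folds of 12.6, 20.1, 15.4 and 20.5, but that one lay 7447 bp away and 134 bp from Tmco6. The 3 matrix arm genes without a four-antibody region within 2 kb were Ndufa7, Ndufv3 and Ndufs6. Ndufab1, the acyl carrier protein that sits in both arms, had a mean fold of 5.69 at 84 bp upstream.

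**Figure D1:**
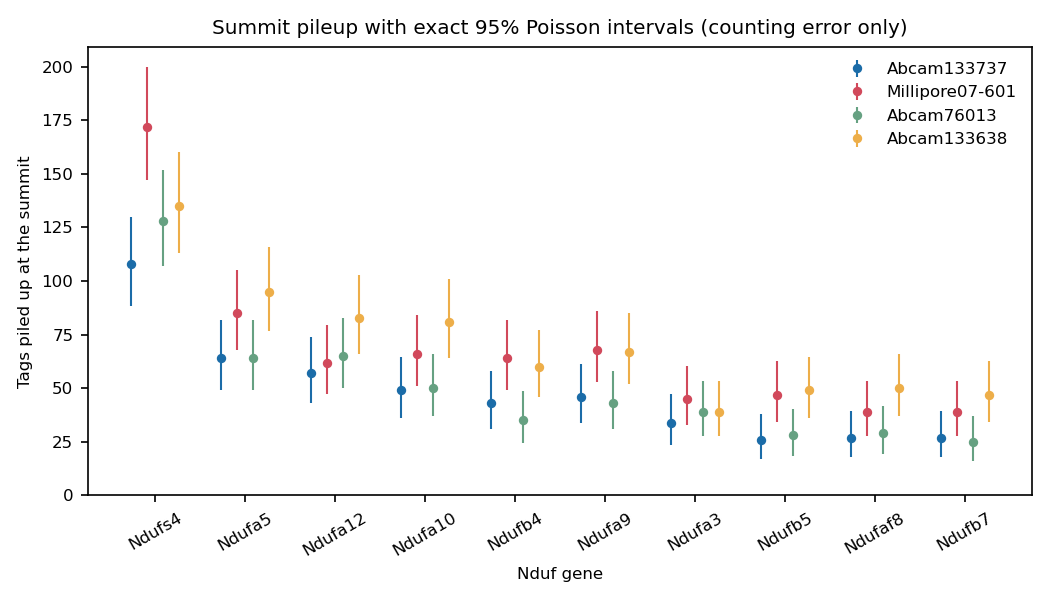
Tags piled up at the summit in each antibody library, with exact 95% Poisson intervals (bars, counting error only), for the 10 Nduf genes with the highest mean fold whose region is nearest to them. Ndufs4, at 108 to 172 tags, lies above the other 9 genes in every library.

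In the proximal membrane arm, where the membrane arm meets the matrix arm, 7 of 9 accessory genes had a four-antibody region within 2 kb, but in 3 of these it was nearer to another gene. Ndufa10, an accessory subunit with a nucleoside kinase fold, had 49, 66, 50 and 81 tags and folds of 10.3, 14.2, 10.4 and 17.7. That region lay 1342 bp beyond the end of the transcription unit, at chr1:92437717-92438730 and outside any protein-coding gene. A second four-antibody region at the Ndufa10 start was weaker (3.08, 5.95, 5.04 and 7.88). Ndufs4 and Ndufa10, 2 of the strongest members, thus had their highest sites at the far end of the gene. Ndufa8, a subunit of the intermembrane space side, had 9.88, 12.1, 6.90 and 14.7 at 98 bp upstream, in the gap to Morn5, whose end was 37 bp away. Ndufa3, a small membrane subunit, had 7.20, 9.73, 8.12 and 8.62 at 40 bp upstream. Ndufa11, Ndufa13, Ndufs5 and Ndufc1 had mean folds of 6.46, 5.19, 4.85 and 4.50, the last being the lowest of the 34. Ndufa13 encodes GRIM-19, also known as a cell death regulator, and its summit was 870 bp inside the gene and 496 bp from Tssk6.

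In the distal membrane arm 7 of 11 genes were counted, with a median mean fold of 6.94. Ndufb3, a small membrane subunit, had 71, 86, 59 and 88 tags and folds of 13.4, 17.3, 11.2 and 17.1, but its summit was 65 bp from Ndufb3 and 1 bp from Fam126b, inside the latter. Ndufb4 had folds of 8.19, 12.9, 6.71 and 11.7 at 78 bp upstream of the start. Ndufb5 had 5.03, 9.53, 5.89 and 9.61, also at 78 bp upstream, with Mrpl47, a mitochondrial ribosome gene, 224 bp away. In Ndufb4 and Ndufb5 the higher folds came from Millipore07-601 and Abcam133638, whose peak lists are longer. Ndufb7, a subunit facing the intermembrane space, had 5.21, 8.46, 4.85 and 9.23 at 32 bp upstream. Ndufb1 had a mean fold of 6.87 midway between its own start (10 bp) and that of Cpsf2 (12 bp). Ndufb2 (6.19) and Ndufb6 (5.70) had their four-antibody regions at the far end of the gene. That of Ndufb6 was nearer to another gene, 730 bp from Ndufb6 and 19 bp from Topors, inside Smim27. Ndufb6 had the strongest region within 10 kb that was nearer to another gene. Its folds were 15.4, 25.6, 15.6 and 22.2, inside Topors, at 2958 bp from Ndufb6 and 1947 bp from Smim27. Ndufb8 had no peak within 2 kb, and its strongest region (9.67, 15.3, 11.2 and 14.8) lay 8691 bp away, inside Hif1an.

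Assembly factors, which build complex I without staying in it, were counted in 4 of 8 cases, and in 2 of the 4 the region was nearest to the factor. Ndufaf3, an early factor of the matrix arm, had 71, 83, 68 and 90 tags and folds of 14.8, 17.8, 14.0 and 19.6, the second highest mean of the family at 16.6. The summit lay 100 bp upstream of Ndufaf3 and 51 bp inside Dalrd3, which starts 48 bp away on the other strand. Ndufaf8 had 5.21, 7.94, 5.59 and 9.80 at 30 bp inside the gene. Ndufaf6 held 3 four-antibody regions within 2 kb of its ends, with mean folds of 6.55, 6.05 and 5.19, more than any other member. Ndufaf5, which modifies Ndufs7, had a mean fold of 5.12, with the summit 24 bp from its start and 1 bp from Esf1. Ndufa4, now assigned to complex IV, and its hypoxia-induced relative Ndufa4l2 were both counted, at 5.22 and 6.96, and the Ndufa4l2 site was nearer to Stac3. Ndufa4l2 also had a region inside the gene at 3669 bp, with folds of 10.3, 14.0, 9.74 and 15.7.

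The 15 members without a four-antibody region within 2 kb were mostly partial cases and not blanks. In the best region of each gene, peaks of 3 antibodies lay at Ndufa7 (mean fold 6.12), Ndufc2 (5.83), Ndufaf4 (4.77) and Ndufv3 (4.71). The best region held 2 antibodies at Ndufb10 (6.10), Ndufaf7 (4.01), Ndufaf1 (3.87) and Ndufb9 (3.65), and 1 antibody at Ndufs6 (4.33) and Ndufb11 (3.81). Separate regions within 2 kb added Millipore07-601 at Ndufb10 (5.08) and Abcam133638 at Ndufb11 (3.02). Over all regions within 2 kb, Abcam133638 had a peak at 10 of these 10, Millipore07-601 at 7, Abcam76013 at 4 and Abcam133737 at 3. Most of these peaks came from the libraries with longer lists. The same counts over all genes with a partial region were not computed, so this is not shown to be particular to the family. Ndufa7 shows the type. Abcam133737, Millipore07-601 and Abcam133638 had folds of 5.33, 5.89 and 7.13 with 26, 28 and 38 tags at a summit 63 bp inside Rps28, a ribosomal protein gene that starts 10 bp from Ndufa7, and Abcam76013 had no peak there. Just inside the 2 kb limit was Ndufs4 (1828 bp), and just outside were Ndufb10 (2004 bp, mean fold 4.70) and Ndufs6 (2508 bp, mean fold 7.45), whose regions lay inside Rps2 and Mrpl36.

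Neither Ndufa1 nor Ndufb4c had a peak in any of the 4 lists within 10 kb, and Ndufaf2, Ndufb4b and Ndufb8 had none within 2 kb. Ndufa1 encodes a small X-linked membrane subunit, and its nearest four-antibody region was 20.3 kb away with a mean fold of 5.24. For Ndufaf2, an assembly factor related to Ndufa12, the nearest was 8151 bp from the end of the transcription unit, next to Smim15. Ndufb4b and Ndufb4c are near-copies of Ndufb4. How reads that fit more than 1 copy were placed is not given in the sources used here, so peaks at all 3 are uncertain. The absence of a peak above the authors' cutoff does not show that a site is free.

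Where the best four-antibody region of a member lay on the start side, its summit was mostly close to the start. RefSeq promoters with a strand were at hand for 42 of the 49. Of the 29 of these with a four-antibody region within 2 kb, 25 had the best one on the start side (86.2%, against 84.4% of all such genes) and 4 on the end side, namely Ndufs4, Ndufa10, Ndufb2 and Ndufb6. On the start side 22 of 25 summits lay within 250 bp of the start (88.0%, against 61.7% of all genes) and 19 within 100 bp. The median distance was 65 bp, against 139 bp over all genes, and 20 of 25 summits were upstream. The shares upstream and within 100 bp were not computed over all genes, so neither is shown to be particular to the family. The farthest were Ndufa11, 698 bp upstream, and Ndufa13, 870 bp downstream. Start here means the outermost annotated base of the gene, and in 9 of the 42 members the RefSeq promoter table has another one. Measured from that table, 23 of 25 summits lay within 250 bp, with a median of 74 bp, and the Ndufs7 summit moved from 270 bp downstream to 74 bp upstream.

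**Figure D2:**
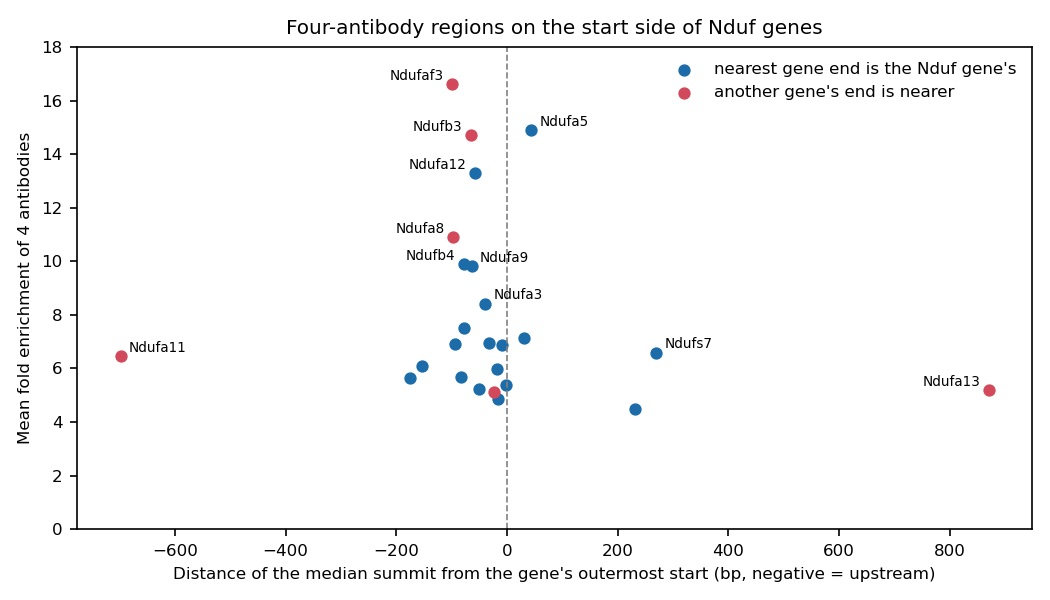
Mean fold enrichment of the 4 antibodies against the distance of the summit from the outermost start of the gene, 1 point for each of the 25 Nduf genes whose best four-antibody region is on the start side. Most points lie within 100 bp of the start and only Ndufa11, Ndufa13 and Ndufs7 lie beyond 250 bp.

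Promoter sequences are shown for the 5 members with the highest folds whose summit fell in the 250 bases before the start, together with Ndufa9, whose summit lies near a match of the short NKX2 core. The last ones, Ndufa1 and Ndufaf2, stand for promoters without a peak of any antibody. Each is the 250 bases before the start, 5′ to 3′ along the gene, from RefSeq on GRCm38.p6. The positions are Ndufaf3 chr9:108567437-108567686, minus strand, Ndufb3 chr1:58586147-58586396, plus strand, Ndufa12 chr10:94198785-94199034, plus strand and Ndufa8 chr2:36049339-36049588, minus strand. The others are Ndufb4 chr16:37654369-37654618, minus strand, Ndufa9 chr6:126849145-126849394, minus strand, Ndufa1 chrX:37191239-37191488, minus strand and Ndufaf2 chr13:108158626-108158875, minus strand. Capitals mark a match of 1 of the motifs named after the sequences.
Ndufaf3: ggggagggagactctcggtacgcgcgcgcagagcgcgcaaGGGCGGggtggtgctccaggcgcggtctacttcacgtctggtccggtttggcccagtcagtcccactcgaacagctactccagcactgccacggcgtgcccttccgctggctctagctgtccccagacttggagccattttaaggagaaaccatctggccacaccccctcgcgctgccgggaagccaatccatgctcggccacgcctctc
Ndufb3: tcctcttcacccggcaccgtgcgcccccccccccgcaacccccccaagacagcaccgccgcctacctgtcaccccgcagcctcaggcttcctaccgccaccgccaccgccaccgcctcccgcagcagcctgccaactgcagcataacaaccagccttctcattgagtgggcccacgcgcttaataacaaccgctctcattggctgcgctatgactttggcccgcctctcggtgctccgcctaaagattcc
Ndufa12: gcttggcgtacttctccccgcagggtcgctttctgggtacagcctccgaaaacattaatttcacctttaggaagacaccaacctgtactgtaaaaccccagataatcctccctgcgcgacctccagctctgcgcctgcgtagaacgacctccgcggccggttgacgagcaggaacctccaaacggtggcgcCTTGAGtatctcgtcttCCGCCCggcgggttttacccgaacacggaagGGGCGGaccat
Ndufa8: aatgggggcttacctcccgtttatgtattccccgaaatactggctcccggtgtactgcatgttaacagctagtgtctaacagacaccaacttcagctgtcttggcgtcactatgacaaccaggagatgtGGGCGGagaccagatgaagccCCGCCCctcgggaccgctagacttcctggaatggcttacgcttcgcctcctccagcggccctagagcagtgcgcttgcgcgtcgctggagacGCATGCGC
Ndufb4: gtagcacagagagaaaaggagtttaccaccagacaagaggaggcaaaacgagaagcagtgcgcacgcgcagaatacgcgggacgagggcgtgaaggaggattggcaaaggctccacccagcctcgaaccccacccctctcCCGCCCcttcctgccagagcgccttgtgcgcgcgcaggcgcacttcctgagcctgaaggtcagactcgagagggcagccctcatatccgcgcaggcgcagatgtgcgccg
Ndufa9: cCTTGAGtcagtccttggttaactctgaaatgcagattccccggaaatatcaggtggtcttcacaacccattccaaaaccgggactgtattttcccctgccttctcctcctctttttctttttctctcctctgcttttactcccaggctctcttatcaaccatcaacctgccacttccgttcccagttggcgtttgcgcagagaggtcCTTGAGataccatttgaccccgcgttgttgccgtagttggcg
Ndufa1: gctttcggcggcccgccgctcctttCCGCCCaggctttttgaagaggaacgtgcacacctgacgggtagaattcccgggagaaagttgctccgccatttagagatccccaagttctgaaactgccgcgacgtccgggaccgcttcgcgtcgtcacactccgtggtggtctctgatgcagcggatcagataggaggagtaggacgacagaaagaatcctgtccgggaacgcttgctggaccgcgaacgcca
Ndufaf2: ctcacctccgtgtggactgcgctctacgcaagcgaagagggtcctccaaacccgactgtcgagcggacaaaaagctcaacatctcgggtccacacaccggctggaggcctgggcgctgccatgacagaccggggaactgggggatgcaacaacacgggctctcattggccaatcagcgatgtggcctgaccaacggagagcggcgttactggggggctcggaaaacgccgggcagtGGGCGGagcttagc

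Motifs were searched as exact letters on both strands in the 300 bases from 250 before to 50 after the promoter table's start, from which positions are counted. They were the NKX2 cores CACTCAAG and CACTTGAG, the short core CTCAAG, which both of the longer ones hold on 1 strand, CCGGAAG for ETS factors, AAGATGG for YY1, GCGCATGC for NRF1 and GGGCGG for SP factors. Neither long NKX2 core occurred in any of the 42 member promoters, against 1.19% and 0.793% of all 17274 promoters. The short core occurred in 9 members (21.4%, against 15.3% of all). Of the 19 without a four-antibody summit in the window, 4 held it (21.1%, against 14.5% of all such promoters). Of the 23 with a summit, 5 held it (21.7%, against 18% of all such promoters). Distances between match and summit varied among these 5. In Ndufa12 the match at -59 contained the summit, at -58. In Ndufa9 the nearer match was at -42 and the summit at -64. For Ndufab1 they were at -66 and -84. Ndufa10 had matches at -180, -5 and 26 and its summit at -50, and Ndufs5 had a match at -220 and its summit at -16. Ndufaf2, without a peak, had a match at 38, outside the bases printed. In Ndufaf3, Ndufb3, Ndufa8 and Ndufb4 no NKX2 letters of this kind stood in the window, and Ndufb3 held none of the motifs at all. The letters of the other motifs were found in 6 members for ETS (14.3%, against 12.1%), 8 for YY1 (19%, against 6.40%), 5 for NRF1 (11.9%, against 3.64%) and 21 for SP (50.0%, against 46.9%). Among promoters with a four-antibody summit, the ETS letters stood in 17.4% of members against 24.7% of all, and SP in 52.2% against 69.8%. There YY1 stood in 17.4% of members against 8.81%, and NRF1 in 13% against 6%. A match is a description of the letters, not of binding.

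A four-antibody summit lay in 23 of 42 member promoters (54.8%), against 22.7% of all promoters. Member promoters were rich in CpG, with a median of 20 CpG pairs against 14. Among promoters at or above that median of 14, 21 of 37 members (56.8%) had a summit, against 37.1% of all. Below it, 2 of 5 members had one, against 8.21%. Members also had close neighbours. Another gene end lay within 500 bp of the start in 19 of the 42 (45.2%, against 12.3% of all genes), and 18 of these were head to head, on opposite strands with starts side by side (42.9%, against 8.85%). Of these 18, 12 had a four-antibody region within 2 kb, below the 73.0% of all 1529 head-to-head genes. With a neighbour within 2 kb, 15 of 22 members were counted (68.2%, against 62.0% of such genes). Without one, 14 of 20 were counted, against 33.5%. The part of CpG content and of gene neighbourhood in the family's share was not tested beyond these values.

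The antibodies differed in fold at the family's regions, as at other gene ends. Over the 34 best regions the median folds were 5.57, 8.04, 5.83 and 8.54, against 6.15, 8.14, 5.97 and 8.84 over the 7069 best regions of all genes. Abcam133638 gave the highest fold at 20 members, Millipore07-601 at 13, Abcam76013 at 1 and Abcam133737 at none. Over the 7069 best regions of all genes, Abcam133638 was highest at 49.1%, Millipore07-601 at 48.5%, Abcam76013 at 1.23% and Abcam133737 at 1.16%. The Ndufa2 region, for example, had 8.67 with Millipore07-601 and 5.17 with Abcam133638, and the Ndufab1 region had 3.54 with Abcam133737 and 8.19 with Abcam133638. Both antibodies with longer lists were above both with shorter lists at 22 of 34 members, against 78.3% of gene-end regions. Their mean exceeded that of the others by a median ratio of 1.37, against 1.39. Counted alone, each antibody had a peak within 2 kb of 37, 41, 38 and 44 members, or 75.5%, 83.7%, 77.6% and 89.8%, against 44.7%, 51.1%, 43.8% and 54.6% of all genes. The 4 summits of a member region spread over 41.5 bp at the median and at most 158 bp. Depth after duplicate removal was 43031331 to 46547989 tags per antibody, and the input, with 10653749 tags, was scaled up 4.04 to 4.37 times. The lists held 40874, 57761, 41294 and 57887 peaks.

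All 6 lists of genes that work with the family also had shares above the background. Complex I factors without an Nduf symbol had a four-antibody region within 2 kb in 6 of 10 cases, led by Timmdc1, a membrane arm assembly factor, with a mean fold of 11.3. Complex II had 6 of 8, led by its assembly factor Sdhaf1 at 34.6 (29.8, 44.5, 29.2 and 34.8). Complex III had 13 of 15, led by Bcs1l, a chaperone, at 29.1, though that summit lay at the end of Zfp142. Complex IV had 21 of 32, led by Cox18, an insertion factor, at 32.3, and complex V had 14 of 18, led by the ring subunit gene Atp5g2 at 14.8. Taken over complexes II to V, 54 of 73 genes (74.0%) were counted, beside 34 of 49 Nduf genes (69.4%) and the background of 38.4%. Regulators of mitochondrial genes had 6 of 12, led by the orphan nuclear receptor Esrra at 11.5. The Nduf share lay within the range of complexes II to V, from 65.6% for complex IV to 86.7% for complex III, while by regions nearest to the gene it was lower, 51.0% against 62.5% for complexes II and IV, 72.2% for complex V and 73.3% for complex III. No difference between lists was tested.

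**Figure D3:**
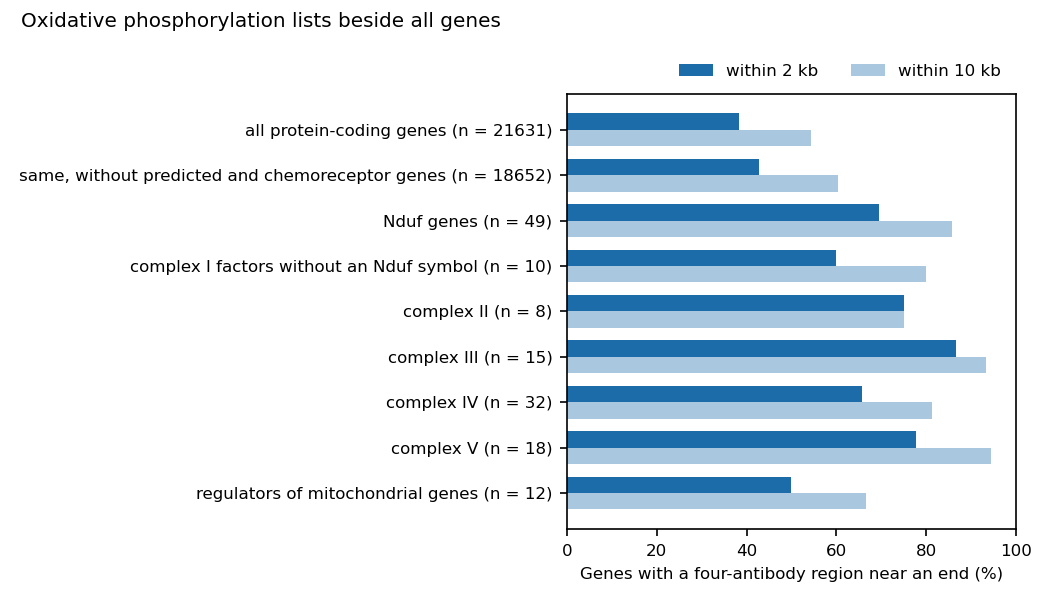
Share of genes (%) with a four-antibody region within 2 kb (dark bars) and 10 kb (light bars) of a gene end, for all protein-coding genes, the Nduf genes and the other lists, with the number of genes in each. The Nduf bars, 69.4% and 85.7%, lie above those of all genes and among those of complexes II to V.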

How the data were processed

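The data are NKX2-1 ChIP-seq peak tables of 4 antibodies, 1 library each. The authors ran MACS 2.1.2, per the file headers, on each antibody against the same input, at a q-value cutoff of 0.05 and 1 tag kept per position. Per the submitters' processing notes, Trimmomatic, Bowtie, SAMtools and MACS2 were used on mm10. Apart from MACS, their versions are not given in the sources used here. Per the file headers, each peak has a summit, a fold enrichment (a ratio), the signal there as piled-up tags, and a p-value and q-value as −log10. The replicate spread is unknown, and Poisson intervals cover counting error of the pileup only.

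From these, peaks overlapping by at least 1 bp were merged. The position of a region is the median of the 4 summits, and distances run to the nearest end of any of the 21631 genes. Strand and promoter sequence came from the RefSeq promoter table, which held 17274 genes. Of 96 genes in 6 other lists 95 were found (not Coa1). No test across genes was made. Work was done in Python 3.11.15 with pandas 2.3.3 and numpy 2.4.6. The assignment of summits to genes was checked on simulated peaks, only for their recovery at the planted gene. Excess assignment and the split by nearest gene were not checked in this way.

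Named were the 10 members with the highest mean fold whose four-antibody region within 2 kb is nearest to them, and the 5 whose strongest region within 10 kb is nearer another gene. Also named were members without a peak, up to 8 with a partial region, 2 on each side of the 2 kb limit, and the top gene of each other list. Further members were named after their values were seen. The members and lists were chosen with earlier results of these data known. Exon structure was not used here. The values of 1 member enter the counts but are not reported here.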

Additional observations from a re-analysis of the deposited data

How the results depend on the processing

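The counts of members and the median fold were recomputed under 11 alternatives, which gave 44 values, and 36 of these stayed within 1.5 times the main count or within 1.51 of the main median. In these the count within 2 kb ran from 26 to 36, within 10 kb from 34 to 44, and of regions nearest to the member from 20 to 27, and the median fold from 6.21 to 6.92. The lowest counts, 26, 34 and 20, came from distances to the start alone, which cover only the 42 members with a strand. With peaks of at least 5-fold only, the counts were 18 within 2 kb (22.5% of all genes), 27 within 10 kb (37.9%) and 13 nearest to the member (19.1%), with a median fold of 9.50 (9.32 for all genes). With the 10000 strongest peaks of each list they were 6 (7.91%), 13 (17.1%) and 4 (6.57%), with a median of 14.8 (13.6), so that the members' median, below that of all genes with all peaks, was above it in both. Both alternatives keep fewer peaks by construction. The member share was above that of all genes in 33 of 33 counts, but these reuse the same 4 libraries and are not independent. With the 10000 strongest peaks the member shares were 12.2% within 2 kb, 26.5% within 10 kb and 8.16% nearest to the member. The last was close to the 6.57% of all genes. Leaving out Ndufb4b and Ndufb4c, the gene set without predicted names, and the splits by neighbour and CpG content were chosen after seeing the data. No paired analysis was possible because each antibody has 1 library and no test was made. What depth does to the calls was not tested.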
